A study of Mus musculus with 12 samples.

Results

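The difference between Jmjd1c KO and WT follicular B cells of the mouse spleen was measured here per animal, over both times at which the cells were taken. The raw counts of the 0 h and the 2 h library of each animal were added, and the 3 KO sums were compared with the 3 WT sums within the 3 batches that the labels give. All 12 of the 12 libraries of the series entered these 6 sums. The comparison was then repeated with the 2 batch 1 libraries of 2 h left out, so that the batch 1 sums held only the 0 h library and 10 of the 12 libraries were used.

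Jmjd1c, also called Kdm3c, is a large nuclear protein of the JmjC family, whose founding members remove methyl groups from histone lysines, and its nearest relatives Kdm3a and Kdm3b act on the repressive mark on lysine 9 of histone H3. Most B cells of the spleen are follicular cells, which recirculate through blood and lymph. Binding of their antigen receptor, for which an antibody to IgM stands in, switches on early response genes, and the cells can later become germinal centre cells or antibody-secreting plasma cells.

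The 4 groups were WT and Jmjd1c KO cells before anti-IgM (0 h) and after 2 h of it, with 3 libraries each. The library names carry the same animal number at both times, and each value of the labels' batch field (1 to 3) holds 1 KO and 1 WT animal. The labels do not give the strain, age or part of Jmjd1c that was deleted, nor the promoter of any Cre, and none of the 12 libraries is labelled as cells kept for 2 h without anti-IgM. The sums held between 14622438 and 26614532 counts, and the 2 h library supplied between 32.9% and 53.2% of an animal's sum. Weighted by TMM-scaled library size, the 2 h library made up 18.5% of the KO and 37.4% of the WT sum in batch 1. In batch 2 it made up 48.4% and 42.7%, and in batch 3 51.8% and 43.7%. Genes whose level differs between the times therefore enter the KO and WT sums unequally, in batches 2 and 3 of the repeat as well. The B cell receptor gene Cd79a was between 247 and 652 CPM in every library, the T cell gene Cd3e between 3.02 and 12.3 CPM, and Fcer2a (CD23), which marks follicular cells, between 222 and 656 CPM. The KO 2 h library of batch 1 stood apart. It had 52.3% of its counts on 45S ribosomal RNA (Rn45s), 525 CPM of the proliferation gene Mki67 where the other 11 libraries had between 8.83 and 138, and 25.8 CPM of the Y-linked gene Ddx3y although the 0 h library of the same animal had 0.607. The WT 2 h library of batch 1 had 24.8% on Rn45s and 5.72 CPM of Ddx3y, against 0.159 at 0 h. In batches 2 and 3 all 8 libraries had between 201 and 284 CPM of Ddx3y. These 2 batches were not alike in other respects. Rn45s held between 12.9% and 15.5% of counts in the batch 2 libraries and between 0.418% and 0.624% in those of batch 3. Mki67 was between 67.2 and 97.1 CPM in batch 2 and between 12.4 and 14.6 in batch 3. The X-linked gene Xist was between 32.4 and 53.5 CPM in batch 2 and between 0.865 and 1.47 in batch 3. CPM are counts scaled to 1 library size by the TMM method.

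Of 12636 genes tested on the sums, 9 were called at an adjusted p under 0.05 (0.0712%) by edgeR's quasi-likelihood test, 3 of them higher in KO (0.0237%) and 6 lower (0.0475%). The lower genes were Jmjd1c itself, Armc9, B3gnt7, Sdc1, Gad1 and Cables1, and the higher ones were Lmo2, Ccl4 and Sema7a. In each of these 9 genes the KO library lay on the same side of the WT library in all 6 pairs formed by the 3 batches and 2 times. The pairs hold the same libraries that gave the calls, so this count is no separate support. Over all tested genes, KO was higher in 6 of 6 pairs for 4.03% and lower in 6 of 6 for 4.5%. Without the adjustment, 1316 genes (10.4%) had a p under 0.05. Fitted without the batch term, the same test called 0 genes, with 264 at an unadjusted p under 0.05. Leaving out the batch 2 animals gave 5 calls, of which 3 were among the 9, leaving out batch 3 gave 23 (7 of the 9), and leaving out batch 1 gave 219 (all 9). DESeq2 with the batch term called 43 genes, which included all 9. limma on the mean log2 CPM of each animal, in which both times weigh the same, called 3 genes, of which Armc9 and B3gnt7 were among the 9. limma with voom on the 12 libraries, with a correlation within animals, called 13, of which 5 were among the 9 (these 2, Jmjd1c, Sdc1 and Gad1). The fitted correlation was -0.26, and a negative value adds no guard against counting 1 animal as 2.

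**Figure D1:**
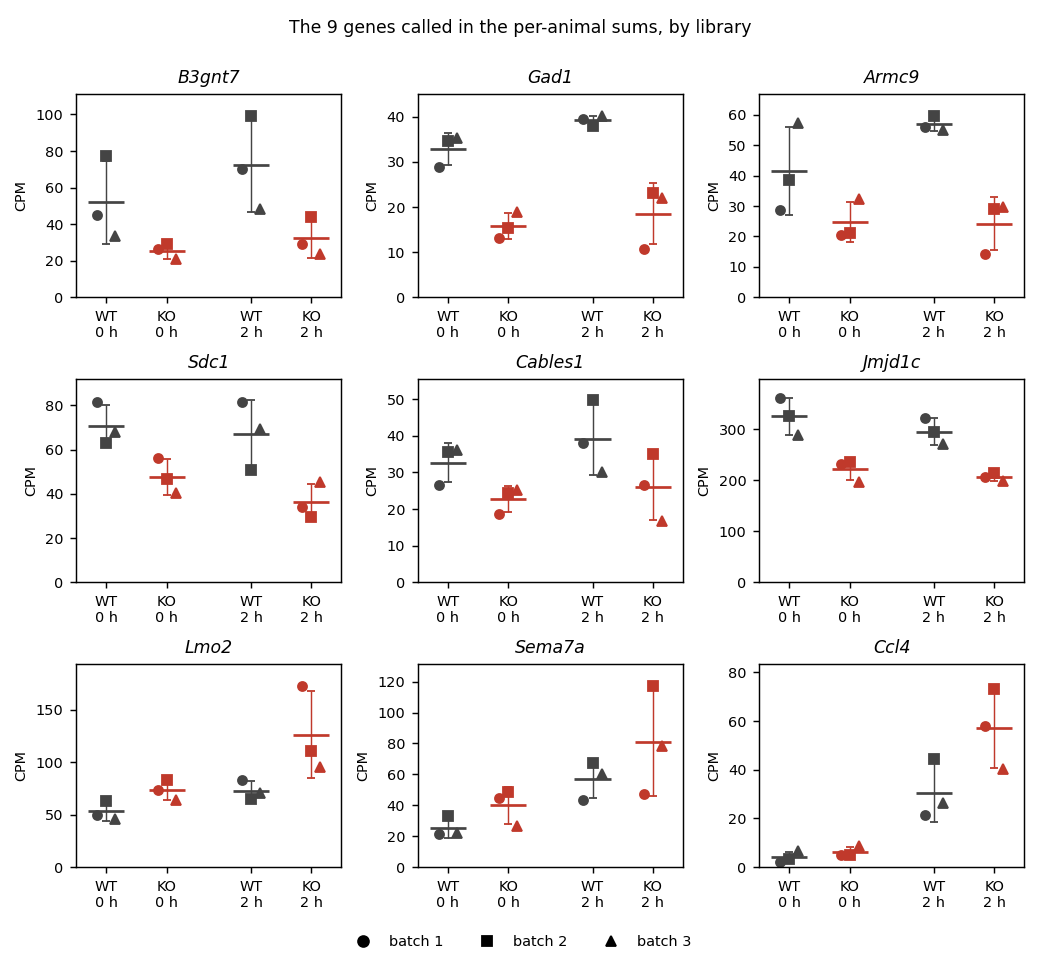
TMM-scaled CPM of the 9 genes called in the sums, 1 panel per gene, in the 12 libraries (WT grey, KO red, symbol shape for the batch), with the mean and SD of 3 libraries as a line and bar. For each symbol shape the KO point is below the WT point of the same time in 6 genes and above it in Lmo2, Sema7a and Ccl4.

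Jmjd1c (chr10:67096351-67256326) was still detected in every KO library. Its summed level was 365, 324 and 289 CPM in the WT animals of batches 1, 2 and 3 and 235, 233 and 205 CPM in the KO animals. All 3 KO sums lay below all 3 WT sums, an arrangement found for 3.22% of tested genes. The gene fell by 0.53 ± 0.07 (SE) on the log2 scale, and edgeR gave an adjusted p of 0.0474. Within batches the difference was close to even, from -0.64 in batch 1 at 0 h to -0.44 in batch 3 at 2 h (log2 of CPM + 0.5). Counts are per whole gene, so they do not show whether the remaining reads come from a deleted transcript. Jmjd1c was called in 6 of 13 alternative analyses of the sums, always with a lower KO level.

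Armc9, a protein of the base of the primary cilium, and B3gnt7, an enzyme that extends sugar chains with N-acetylglucosamine, are neighbours on chromosome 1 (chr1:86154729-86278284 and chr1:86303221-86307305) and had the smallest p-values of the table. Armc9 stood at 41.1, 49.3 and 57.9 CPM in the WT sums and 20.2, 25.8 and 32.00 CPM in the KO sums. B3gnt7 stood at 57.2, 89.7 and 41.1 CPM in WT and 28.2, 37.5 and 22.95 CPM in KO. The KO sums were below every WT sum for both genes, with the highest KO value of B3gnt7 close to the lowest WT value. Armc9 fell by 0.93 ± 0.07 and B3gnt7 by 1.04 ± 0.08 on the log2 scale (edgeR, adjusted p = 0.00393 and 0.00431). Both calls held in 11 of 13 alternatives and were lost without the batch term and in the 2 h libraries alone. Among the other tested genes within 500 kb, 14 for Armc9 and 12 for B3gnt7, none was called. The receptor gene Gpr55 had the largest difference of them, -0.70 ± 0.30 (edgeR, unadjusted p = 0.0443).

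The promoters of Armc9 and B3gnt7 are shown because these 2 neighbours fell together, and that of Sema7a because it is the only called higher gene with a RefSeq promoter entry. Each is the 250 bases before the start site on the + strand of GRCm38.p6, from RefSeq, at chr1:86154530-86154779, chr1:86302971-86303220 and chr9:57939862-57940111. For Armc9 and Sema7a the start site of the promoter entry lies inside the gene span, downstream of its first base. Capitals mark matches to the E-box CACGTG or to the NF-kB motif (GGGA and CC with any 4 bases between them), on either strand.
Armc9: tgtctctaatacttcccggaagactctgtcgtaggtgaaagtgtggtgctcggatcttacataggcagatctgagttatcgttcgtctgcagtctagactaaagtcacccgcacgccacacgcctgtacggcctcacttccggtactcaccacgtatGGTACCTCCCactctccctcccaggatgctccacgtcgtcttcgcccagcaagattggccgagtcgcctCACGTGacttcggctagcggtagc
B3gnt7: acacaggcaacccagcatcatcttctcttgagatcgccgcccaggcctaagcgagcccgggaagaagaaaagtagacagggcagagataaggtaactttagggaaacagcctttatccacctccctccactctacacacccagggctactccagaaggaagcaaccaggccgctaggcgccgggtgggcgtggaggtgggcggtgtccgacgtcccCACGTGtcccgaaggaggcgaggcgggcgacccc
Sema7a: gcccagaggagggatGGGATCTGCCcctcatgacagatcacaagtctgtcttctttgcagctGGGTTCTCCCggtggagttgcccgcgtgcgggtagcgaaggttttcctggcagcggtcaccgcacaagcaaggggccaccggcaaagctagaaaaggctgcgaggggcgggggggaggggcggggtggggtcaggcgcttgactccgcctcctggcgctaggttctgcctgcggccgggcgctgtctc
Armc9 and B3gnt7 each held 1 E-box, beginning 24 and 34 bases before the start. Armc9 also held 1 NF-kB match 93 bases before it, and Sema7a held 2, at 235 and 188 bases. Searched over 250 bases before to 50 after the start, 10.4% of the 9382 tested genes with an entry had the E-box and 26.1% the NF-kB motif. A match is a run of letters and says nothing of binding.

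Sdc1, Gad1 and Cables1 were the other genes that fell. Sdc1 (chr12:8771396-8793716) encodes syndecan-1, the surface proteoglycan CD138 by which plasma cells are recognised. Its sums were 85.9, 59.8 and 70.5 CPM in WT and 54.3, 39.8 and 44.3 CPM in KO, without overlap, and it fell by 0.64 ± 0.06 on the log2 scale (edgeR, adjusted p = 0.00625). In bulk RNA, fewer cells that carry a marker and less RNA per cell cannot be told apart. Gad1 (chr2:70561303-70602014) encodes the glutamate decarboxylase that makes GABA. It stood at 34.7, 37.3 and 38.5 CPM in WT and 13.2, 19.7 and 21.2 CPM in KO. The highest KO sum was well under the lowest WT sum, and the fall was 1.04 ± 0.11 on the log2 scale (edgeR, adjusted p = 0.0175). Cables1, an adaptor between cyclin-dependent kinases and the kinase Abl, had 32.5, 43.03 and 34.4 CPM in WT and 20.8, 30.5 and 21.5 CPM in KO. The groups again did not overlap, though the batch 2 KO sum was near the batch 1 WT sum. Cables1 fell by 0.61 ± 0.07 (edgeR, adjusted p = 0.0375). The RefSeq model of Cables1 overlaps Gm6277 and Mir1901, whose reads cannot be told apart from it since no source used here gives the strand setting. Of 13 alternatives, Sdc1 was called in 10, Gad1 in 9 and Cables1 in 7.

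Lmo2, Ccl4 and Sema7a were the genes that rose. Lmo2 (chr2:103957903-103981878), a LIM-domain partner of blood transcription factors that is also known from germinal centre B cells, had 65.9, 66.3 and 58.4 CPM in the WT sums and 95.4, 99.6 and 83.1 CPM in the KO sums. Every KO sum was above every WT sum, as for 3.74% of tested genes, and Lmo2 rose by 0.54 ± 0.06 on the log2 scale (edgeR, adjusted p = 0.0178). Ccl4 (chr11:83648624-83664683) encodes a chemokine that activated B cells release. It had 9.93, 21.7 and 15.6 CPM in WT and 15.5, 39.5 and 25.8 CPM in KO. The 2 groups overlapped, and the KO sum exceeded the WT sum of its own batch each time. Weighted by TMM-scaled size, the 2 h library made up 18.5% of the KO and 37.4% of the WT sum in batch 1. Ccl4 was higher at 2 h, so the unequal 2 h shares of the batches enter its sums. Ccl4 rose by 0.75 ± 0.09 (edgeR, adjusted p = 0.0288), a value that rests on the batch term. Its RefSeq model overlaps that of the chemokine gene Ccl3, which had 0.50 ± 0.21 and was not called. Sema7a (chr9:57939596-57962865), a membrane-anchored semaphorin of immune and nerve cells, had 31.1, 49.5 and 39.9 CPM in WT and 46.9, 84.6 and 55.1 CPM in KO. Here too the groups overlapped and the KO sum was higher within each batch, with a rise of 0.61 ± 0.07 (edgeR, adjusted p = 0.0288). Lmo2 was called in 8 of 13 alternatives and Ccl4 and Sema7a in 7. All 3 were not called without the batch term, without batch 2, in the 2 h libraries alone or in either limma fit.

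The same 9 genes were followed at each time. Armc9 had 28.6, 38.6 and 57.1 CPM in WT and 20.6, 21.2 and 32.4 in KO at 0 h, and 56.1, 59.7 and 55.1 in WT and 14.1, 29.00 and 29.5 in KO at 2 h. The KO libraries lay lower at both times, with 1 KO library at 0 h above the lowest WT one. Lmo2 had 49.9, 63.4 and 46.2 CPM in WT and 73.5, 82.7 and 64.3 in KO at 0 h, against 83.4, 65.02 and 70.2 and 173, 111 and 95.3 at 2 h. The KO libraries of Lmo2 were above all WT libraries of the same time. The chemokine Ccl4 had 2.31, 3.498 and 6.53 CPM in WT and 5.16, 5.21 and 8.68 in KO at 0 h, and 21.3, 44.3 and 26.3 and 58.01, 73.3 and 40.2 at 2 h, so its summed level came mostly from the 2 h libraries. In the test of whether the genotype difference changed between times (edgeR, animal as block, 12 libraries), 0 of 12242 genes were called and 87 had an unadjusted p under 0.05 (0.711%). For the 9 genes the difference at 2 h minus that at 0 h ran from -0.55 ± 0.33 in Armc9 to 0.28 ± 0.28 in Lmo2, and for Jmjd1c it was 0.04 ± 0.16, all on the log2 scale. These standard errors leave room for sizeable changes, so the result does not show that the difference was equal at both times.

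Taken alone, the 6 libraries of 0 h gave 23 calls of 11737 genes (0.196%), of which 7 were among the 9. Sema7a, at 0.63 ± 0.12, and Ccl4, at 0.67 ± 0.21, were the 2 genes not called there. The 6 libraries of 2 h gave 0 calls of 11656 in edgeR, with 543 genes at an unadjusted p under 0.05. At 2 h alone the log2 differences were -1.22 ± 0.21 for Armc9, -1.13 ± 0.12 for B3gnt7 and -0.50 ± 0.13 for Jmjd1c, beside -0.72 ± 0.09, -0.95 ± 0.12 and -0.55 ± 0.07 at 0 h.

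**Figure D2:**
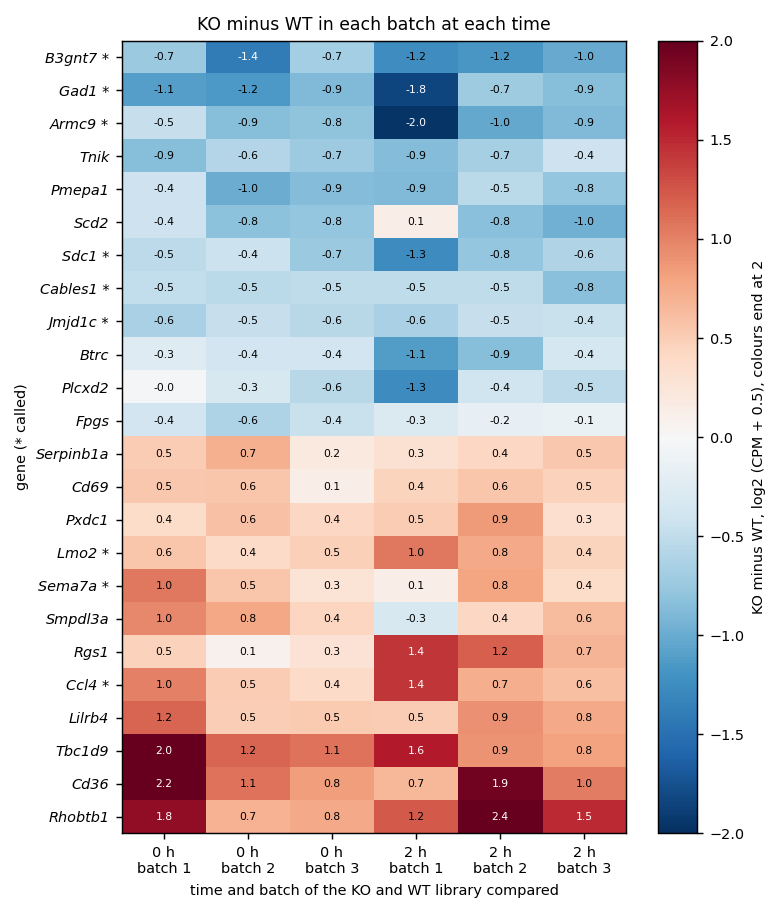
KO minus WT in log2 (CPM + 0.5), for each batch at each time (6 columns), of the genes named by rule for the sums (rows); red is higher in KO, blue lower, and colours end at 2. All 6 cells of a row share a sign for the 9 called genes, from -1.96 for Armc9 in batch 1 at 2 h to 1.43 for Ccl4 in the same pair.

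Without the batch 1 libraries of 2 h, 68 of 12194 genes were called (0.558%), 42 higher in KO (0.344%) and 26 lower (0.213%). All 9 genes of the full sums were among them. Of the 68, 65 also had an unadjusted p under 0.05 in the full sums, and all 68 kept their direction there. The 2 comparisons share 10 of the 12 libraries, so this agreement was largely fixed in advance and is no separate support. In 48 of the 68 genes the KO library was on 1 side in all 6 pairs, the left-out pair included. Apart from that pair, these are the libraries that gave the calls. The log2 differences ran from 0.30 to 1.47 in the higher genes, of which 3 exceeded 2-fold, and from -0.97 to -0.28 in the lower ones. The estimate of Jmjd1c hardly moved, at -0.54 ± 0.06 (edgeR, adjusted p = 0.00554). Without the batch term this repeat also gave 0 calls, with 161 genes at an unadjusted p under 0.05. Leaving out batch 3 gave 272 calls, leaving out batch 1 altogether gave 219, and leaving out batch 2 gave 61, of which 40 were among the 68.

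**Figure D3:**
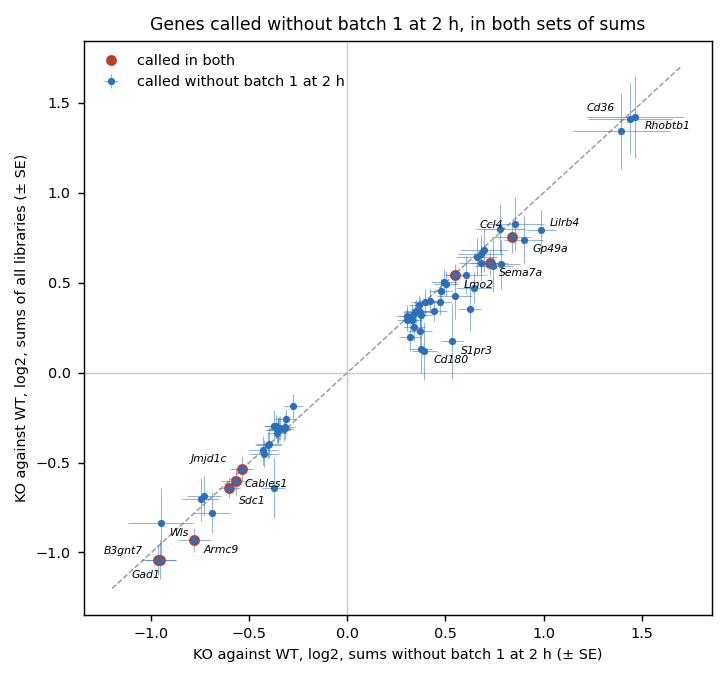
Log2 difference of KO against WT (± SE) for the 68 genes called without the batch 1 libraries of 2 h. Those sums give the horizontal axis and the sums of all 12 libraries the vertical axis. The 9 genes called in both are red dots. Both axes share 10 of the 12 libraries. Points lie near the dashed line of equal values, while S1pr3 (0.53 against 0.17) and Cd180 (0.39 against 0.12) lie well under it.

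Among surface receptors, Lilrb4, an inhibitory immunoglobulin-like receptor of leukocytes, had the smallest p of the repeat. Its sums over all libraries were 13.8, 25.8 and 29.6 CPM in WT and 18.1, 51.2 and 55.3 CPM in KO. They overlapped between groups, with batch 1 the lowest in both genotypes, and the KO sum was the higher one in each batch. Single libraries ran from 5.65 to 89.3 CPM. How far the unequal 2 h shares of the KO and WT sums enter the values of Lilrb4 was not tested. In the repeat Lilrb4 rose by 0.99 ± 0.08 (edgeR, adjusted p = 0.00208), against 0.79 ± 0.11 and an adjusted p of 0.06 in the full sums. Its near-identical neighbour Gp49a rose by 0.90 ± 0.10, and reads of the 2 genes may have been split between them by the counting. Cd36, a scavenger receptor and lipid transporter known from marginal zone B cells, had 3.68, 4.503 and 7.504 CPM in WT and 15.2, 11.7 and 14.5 CPM in KO. All KO sums were above all WT sums. Cd36 rose by 1.44 ± 0.21 in the repeat (edgeR, adjusted p = 0.024) and stood at 1.41 ± 0.20 in the full sums, where its adjusted p was 0.06.

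Cd69, an early activation antigen that holds lymphocytes in tissue, had 127, 117 and 94.5 CPM in the WT sums and 180.1, 176 and 125 CPM in the KO sums. The batch 3 KO sum lay just under the highest WT sum, so the groups overlapped. It rose by 0.50 ± 0.06 in the repeat (edgeR, adjusted p = 0.00966). The sphingosine-1-phosphate receptor S1pr3 had 38.5, 68.98 and 48.7 CPM in WT and 22.6, 103 and 68.5 in KO, with batch 1 lower in KO than in WT and batches 2 and 3 higher. In the batch 1 libraries S1pr3 was at 8.95 CPM in KO and 6.28 in WT at 0 h and at 78.5 and 87.0 at 2 h, and the 2 h library had the smaller weight in the KO sum. In the repeat, with batch 1 at 0 h only, S1pr3 rose by 0.53 ± 0.06. In batches 2 and 3 the 2 h library had the larger weight in the KO sum, which enters this value. Ms4a1, the B cell antigen CD20, and Cd180, a relative of Toll-like receptors on B cells, rose by 0.37 ± 0.06 and 0.39 ± 0.06. For S1pr3, Ms4a1 and Cd180 the left-out batch 1 pair at 2 h was the 1 pair of 6 in which KO was lower. Adora2a, an adenosine receptor, rose by 0.74 ± 0.10 and was higher in 6 of 6 pairs.

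Regulators of signalling moved in both directions in the repeat. Ptpn22, a phosphatase that restrains antigen receptor signalling and is linked to autoimmune disease, had 70.7, 68.8 and 90.7 CPM in the WT sums and 89.1, 115 and 116 CPM in the KO sums. The batch 1 KO sum was under the batch 3 WT sum, and within each batch KO was higher. Ptpn22 rose by 0.64 ± 0.09 (edgeR, adjusted p = 0.02), and in the left-out pair it was slightly lower in KO (-0.14). Rgs1, which shortens signals of G protein-coupled receptors, and Samsn1, an adaptor that dampens B cell activation, rose by 0.68 ± 0.11 and 0.38 ± 0.06. Tnik, a kinase of the Wnt and stress pathways, fell by 0.69 ± 0.09, Irs2, the insulin receptor substrate, by 0.38 ± 0.06, and Itpr3, a calcium release channel, by 0.32 ± 0.05. Pmepa1, an inhibitor of TGF-beta signalling, fell by 0.75 ± 0.09 and was lower in 6 of 6 pairs.

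Scd2, a fatty acid desaturase, was called lower in the repeat. Its sums were 118, 148 and 95.9 CPM in WT and 95.6, 81.6 and 51.4 CPM in KO. The groups touched but did not overlap, since the batch 1 KO sum of 95.6 lay just under the batch 3 WT sum of 95.9. Scd2 fell by 0.73 ± 0.09 (edgeR, adjusted p = 0.00966). Fpgs, which adds glutamates to folate, fell by 0.36 ± 0.05. Serpinb1a, an inhibitor of neutrophil proteases, and Fam213a, a peroxiredoxin-like protein, rose by 0.48 ± 0.06 and 0.47 ± 0.06. Crisp3, a secreted cysteine-rich protein, rose by 0.78 ± 0.10, and Pxdc1 by 0.49 ± 0.07. Adam19, a membrane metalloprotease, fell by 0.35 ± 0.05. Beside Cd36, the 2 genes that rose over 2-fold were expressed at low levels. Rhobtb1, an atypical small GTPase, had 1.47, 1.43 and 1.91 CPM in WT and 5.21, 4.05 and 3.96 in KO, and Tbc1d9, a Rab GTPase regulator, had 1.84, 3.002 and 2.55 and 6.82, 6.65 and 5.36. Neither gene's groups overlapped, and in the repeat they rose by 1.47 ± 0.25 and 1.397 ± 0.25. Both were called in 7 of 10 alternatives of the repeat, and neither was called without batch 2.

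The remaining calls of the repeat covered several other functions. Of enzymes that build surface glycans, Chst11, a chondroitin sulfotransferase, rose by 0.60 ± 0.11 and St8sia6, a sialyltransferase, by 0.68 ± 0.11, while Xylt1, which starts the sugar chains of proteoglycans, fell by 0.36 ± 0.06. Of ubiquitin regulators, Otulin, which removes linear chains, rose by 0.38 ± 0.05, Uchl3, a deubiquitinase, rose by 0.40 ± 0.07, and Btrc, the substrate receptor of a ligase that acts on IkB and beta-catenin, fell by 0.42 ± 0.07. Wls, the carrier that brings Wnt proteins to the cell surface, fell by 0.95 ± 0.16, with a higher KO value in 1 of 6 pairs. Ly75, the endocytic receptor DEC-205, fell by 0.43 ± 0.08, and Mkl1, a coactivator of serum response factor, by 0.35 ± 0.06. Eif2s2, a subunit of initiation factor eIF2, rose by 0.36 ± 0.05, Snrpd1, a core protein of spliceosomal particles, by 0.35 ± 0.06, and Cd53, a tetraspanin of leukocytes, by 0.33 ± 0.05. Mpc1, of the mitochondrial pyruvate carrier, rose by 0.55 ± 0.09. The adjusted p of these 13 genes in the full sums (edgeR) was between 0.0974 and 0.366. Of 10 alternatives of the repeat, Uchl3, Btrc and Snrpd1 were called in 5, Wls and Ly75 in 6, and the others in 7 or 8. Of the 13, only Xylt1 and Cd53 were still called without batch 2.

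Besides Jmjd1c, 6 genes called in the repeat lay within 20 Mb of it on chromosome 10, namely Gp49a, Lilrb4, Smpdl3a, Rhobtb1, Adora2a and Chst11. All 6 were higher in KO. They were 6 of 276 tested genes there (2.17%), against 0.558% of all genes, and in the full sums 0 of 281 were called. The window of 20 Mb was chosen after the values were seen. Gp49a and Lilrb4 are neighbours and count as 1 place. The 4 other tested genes within 500 kb of Jmjd1c had differences between -0.16 and 0.12 in the full sums and none was called. Whether the KO and WT animals differ in strain background around Jmjd1c was not tested, as the labels do not give it.

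**Figure D4:**
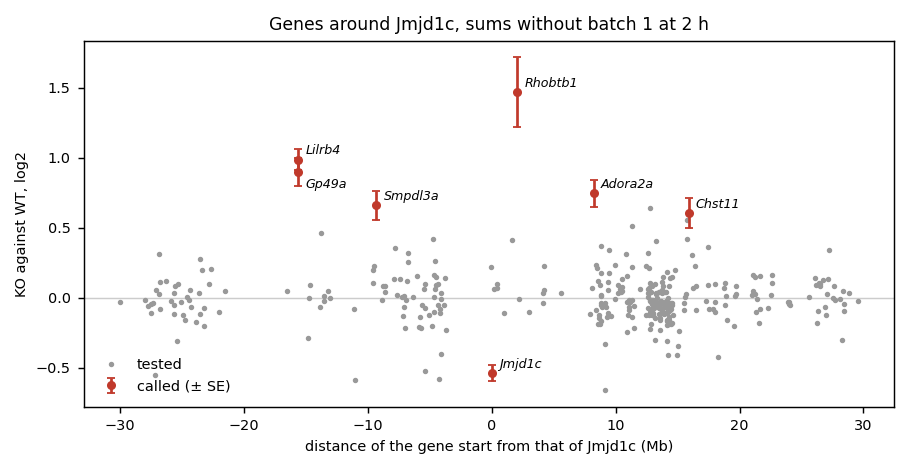
Log2 difference of KO against WT without the batch 1 libraries of 2 h, for tested genes of chromosome 10 within 30 Mb of Jmjd1c, by distance in Mb (bars are SE). Called genes are marked in red and named: Jmjd1c is below 0 and the 6 others lie above it, on both sides of the gene.

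Promoter letters were compared over the genes called in the repeat that have a RefSeq entry, 28 higher and 15 lower. The E-box CACGTG was in 5 of the 15 lower (33.3%) and 0 of the 28 higher genes, against 10.4% of all promoters. The NF-kB motif was in 14 of the 28 higher (50.0%) and 2 of the 15 lower genes (13.3%), against 26.1%. Of the genes called in the full sums, Sdc1, which fell, held an NF-kB match as well. The motifs AP-1 (TGANTCA), CRE (TGACGTCA), EGR (GCGNGGGCG) and PU.1 (GAGGAAGT) were searched in the same way and were each in at most 3 promoters of either set. No motif was put to a test.

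Gene lists were described by counts and medians beside the whole table, whose median log2 difference was 0.00418 in the sums and 0.0010 in the repeat. Of 21 histone lysine demethylase genes, Jmjd1c not among them, 0 were called. Kdm4a (-0.18 ± 0.06) and Phf2 (-0.17 ± 0.06) had an unadjusted p under 0.05, where 4.74% of all genes lay on the lower side, and both were lower in 6 of 6 pairs. The list's median was -0.09, with -0.07, 0.06 and -0.09 by batch, so batch 2 did not share it. Among 14 H3K9 methyltransferases and HP1 readers, Mphosph8, a reader of the methylated lysine, had the smallest p, with 0.24 ± 0.06, and none was called.

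For plasma cells and antibody secretion, Sdc1 was the 1 gene of 24 called in the sums. Igj, the joining chain of secreted IgM, went the other way at 1.04 ± 0.29 without being called (edgeR, adjusted p = 0.359). Its sums were 20.1, 36.7 and 81.02 CPM in WT and 94.02, 41.1 and 141 CPM in KO, with the widest gap in batch 1. Among 27 NF-kB subunits and targets, Ccl4 was called in the sums and Bcl2a1b, an anti-apoptotic relative of BCL2 with near-identical copies, also in the repeat (rise of 0.44 ± 0.06). In the sums, 4 of these 27 had an unadjusted p under 0.05 on the higher side, where 5.67% of all genes did, and the list's median was 0.02, with -0.10, 0.14 and 0.08 by batch. In the repeat 9 of the 27 did, against 7.8% of all genes, and the median was 0.09. This list summed higher at 2 h than at 0 h, so the unequal 2 h shares enter both medians. In the list of 20 tested marginal zone and B1 genes, Cd36, Plac8 and S1pr3 were called higher in the repeat, as were 0.344% of all genes. In the sums 0 were called. The list's medians by batch were 0.37, 0.08 and -0.01 in the sums and 0.19, 0.08 and -0.02 in the repeat, so batch 3 did not share a rise. Plac8 rose by 0.42 ± 0.06. Cd5, a marker of B1 and T cells, was at -0.29 ± 0.11 in the full sums and was not called. Of 29 immediate early and activation genes, Cd69 was called in the repeat, where the median of the list was 0.01. Among 19 germinal centre genes 0 were called in the sums and 5 had an unadjusted p under 0.05 on the higher side (5.67% of all genes), among them Rgs13 (0.65 ± 0.16), a G protein regulator, and Bcl6 (0.22 ± 0.07), the master repressor of the germinal centre programme. Their median was 0.14 in the full sums and 0.01 in the repeat.

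Further lists held no called gene in the sums. All 79 cytosolic ribosomal protein genes were above 0 in the sums, 27 of them with an unadjusted p under 0.05 (5.67% of all genes on that side), and the median was 0.16. By batch that median was 0.32, -0.03 and 0.21, so batch 2 did not share it. The list summed to 60327 CPM in the KO 2 h library of batch 1 and to between 30324 and 41948 CPM in the other 11, and in the repeat the median was 0.13, with 0.20 in batch 1 and 79 of 79 genes above 0. For 55 nuclear respiratory chain genes the median was 0.13, with 0.21, -0.04 and 0.15 by batch. That list summed to 5232 CPM in the same library and to at most 4173 CPM elsewhere, and its median in the repeat was 0.08, with 0.10 in batch 1. Of 17 heat shock and handling genes, 6 had an unadjusted p under 0.05 on the higher side, led by Hspe1 (0.32 ± 0.07), Dnaja1 (0.27 ± 0.06) and Hsp90aa1 (0.26 ± 0.07), and the medians by batch were 0.17, 0.14 and 0.16. At 0 h the list summed to 2376, 2070 and 2217 CPM in KO and 2191, 2135 and 1883 in WT (batches 1, 2 and 3). At 2 h it summed to 3973, 4553 and 3709 CPM in KO and 3312, 4438 and 3685 in WT. The list was thus higher at 2 h, and the unequal 2 h shares enter its medians. Of 45 interferon-stimulated genes, 9 were lower at that p (4.74% of all genes) and 0 higher. Their batch medians were 0.17, -0.04 and -0.45, and Ifit3, an antiviral protein, was at -0.66 ± 0.23. In 27 genes of cholesterol and fatty acid synthesis the desaturases Scd2 and Scd1 (-0.36 ± 0.07) were lower, and Msmo1, of the sterol branch, was at 0.26 ± 0.09. The median of the list was 0.07, with -0.10, 0.21 and -0.05 by batch, so batches 1 and 3 did not share it. In batches 2 and 3 the list summed higher at 2 h than at 0 h, so the unequal 2 h shares enter these medians. Of these lists, Scd2 was the 1 gene called in the repeat.

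**Figure D5:**
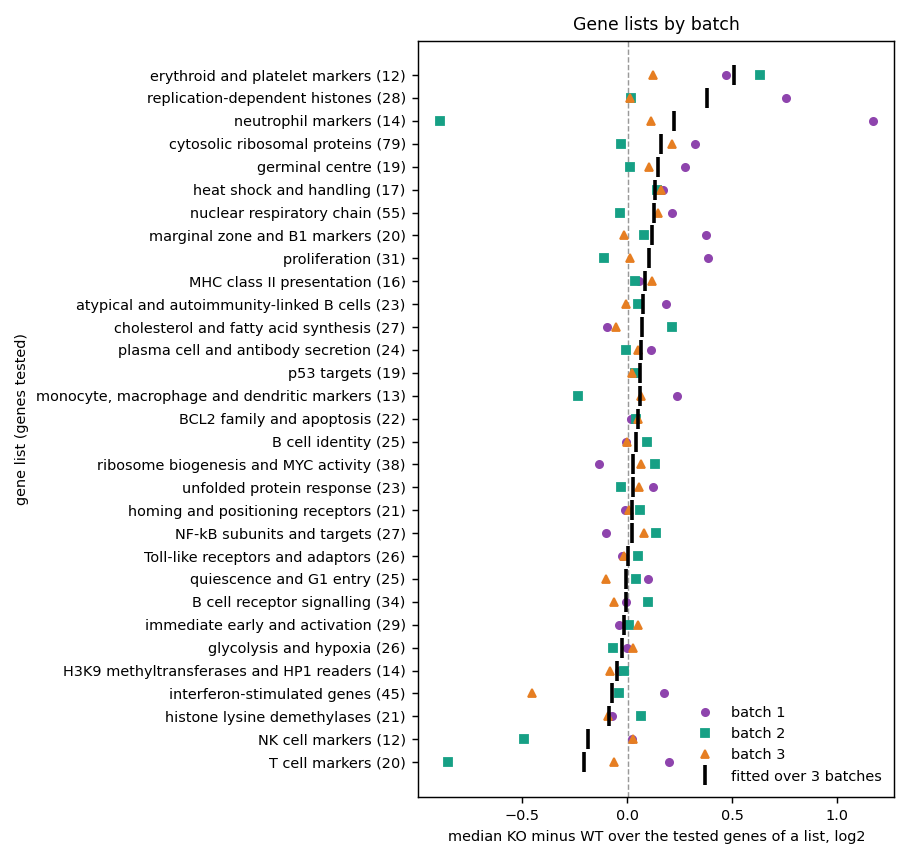
Median log2 difference of KO against WT sums over the tested members of each gene list (rows), for batches 1, 2 and 3 (points, 1 animal of each genotype per batch) in the sums of all libraries. Replication-dependent histones and neutrophil markers lie far to the right in batch 1 alone (0.76 and 1.17), and interferon-stimulated genes lie to the left in batch 3 (-0.45).

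Proliferation genes and markers of other cells differed between batches. Replication-dependent histones had a median of 0.38 in the full sums, from 0.76 in batch 1 and 0.02 and 0.01 in batches 2 and 3, and of -0.17 in the repeat. Their summed level was between 14.1 and 674 CPM in the other 11 libraries and 2526 CPM in the KO 2 h library of batch 1. Neutrophil markers summed to 627 CPM in that library and to between 22.1 and 163 CPM in the others, and their batch medians were 1.17, -0.89 and 0.11. Mpo, the myeloperoxidase of neutrophil precursors, made up 440.2 of the 627 CPM. The neutrophil gene S100a8 was at 23.5 CPM there and between 3.06 and 11.99 CPM elsewhere. T cell markers were lower in KO in batch 2 (median -0.85) and close to 0 or above in batches 1 (0.20) and 3 (-0.07). Their sums were between 263 and 459.9 CPM in all libraries. Of this, Lck gave between 37.9 and 160 CPM and Cd2 between 34.3 and 134. The T cell receptor genes Cd3e and Cd3d were lower, between 3.02 and 12.3 and between 2.26 and 8.41 CPM. Erythroid and platelet genes had batch medians of 0.47, 0.63 and 0.12, with the globin gene Hba-a1 at 1.45 ± 1.52 CPM (SD, n = 3) in the WT sums and 3.05 ± 2.93 CPM in the KO sums. The part of these markers in the calls was not tested. All 9 genes called in the sums were also called with the batch 1 libraries of 2 h left out and with batch 1 left out altogether. Both of these fits keep the animals of batches 2 and 3, so they do not test the part of the markers.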

How the data were processed

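Poly(A) RNA of sorted follicular B cells was sequenced from 6 animals at 2 times. STAR and the build mm10 are named in the submitters' processing notes. The counter, its annotation and strand setting are not given in the sources used. Each of 12 deposited files holds whole-number counts by gene symbol, not normalized by the authors, and CPM were computed here.

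Counts of the 0 h and 2 h library of each animal were added. Genes passing filterByExpr were scaled with TMM and tested two-sided with edgeR 4.0.16 (quasi-likelihood) under R 4.3.3, with batch and genotype as terms, and p-values were adjusted by the Benjamini-Hochberg method over all tested genes. The design left 2 residual degrees of freedom. Standard errors (SE) were derived from the F statistic. The scripts were tested on simulated data. The difference between times was tested on the 12 libraries with the animal as block. RefSeq positions (GRCm38.p6) were found for 12556 tested genes.

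The batch numbers are the labels' own and pair 1 KO with 1 WT animal. After removing genotype means, sums with the same number correlated at 0.590, 0.624 and 0.879, and those with different numbers between -0.669 and 0.378. No 2 libraries of 1 group agreed within sampling noise.

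Named genes were Jmjd1c, the 12 genes per direction with the smallest p in each comparison with 1 direction in 3 batches and a log2 CPM averaging at least 1, and up to 4 members of each of 31 gene lists. Other genes named were chosen after their values were seen. A gene that the rule names is not reported here. The members and lists were chosen with earlier results of these data known. Alternatives covered the batch term, normalization (RLE), filters, DESeq2 1.42.0, limma 3.58.1, the times and each batch left out.

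Totals ranged from 5666013 to 14153396 counts per library, so a floor of 3 counts was between 0.183 and 1.01 CPM, covering counting error only.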

Additional observations from a re-analysis of the deposited data

How the results depend on the processing

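The calls rest on the pairing by batch. With no replicate block, the sums gave 0 calls (264 genes at an unadjusted p under 0.05, edgeR) and the repeat without the batch 1 libraries of 2 h gave 0 (161 genes). Other counts that moved by over 1.5 times were, for the sums, 152 with no filter on low counts, 43 with DESeq2, 3 with limma on the mean log2 CPM per animal, 23 from the 0 h libraries alone and 0 from the 2 h libraries alone, and for the repeat, 450 with no filter. Leaving out 1 batch at a time gave between 5 and 219 calls in the sums and between 61 and 272 in the repeat. RLE scaling gave 8 and 50 calls. The difference between times gave 0 calls under each of its 7 alternatives, with 13 to 121 genes at an unadjusted p under 0.05. In the sums, S1pr3 lay between -0.062 and 0.52 and Cd180 between -0.088 and 0.40 with 1 batch left out, and Cd180 was at -0.14 from the 2 h libraries alone, and neither was called in the full sums. In these alternatives the cause was not tested. With 3 animals per genotype and 2 residual degrees of freedom, differences near the threshold move in and out of the calls, and genes under about 1 CPM cannot be followed.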

Other observations

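Some further genes of the lists had values at the edge of the table. Fcrl5, an Fc receptor-like protein of atypical B cells, was at 0.84 ± 0.17 in the full sums (edgeR, adjusted p = 0.171), with 6.14, 4.07 and 7.86 CPM in WT and 12.3, 9.25 and 10.8 CPM in KO, which did not overlap. Nt5e (CD73), which makes adenosine, was at -0.74 ± 0.23 and lower in 6 of 6 pairs, and Tbx21 (T-bet), the transcription factor of the same atypical cells, was at -0.46 ± 0.16 and also lower in 6 of 6. None of these was called. Of 16 MHC class II presentation genes, Ctss, the protease that trims the invariant chain, had the smallest p, with 0.25 ± 0.07, and was higher in 6 of 6 pairs.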
